A study of Homo sapiens with 6 samples.

Results

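The 10 genes ZEB1, ZEB2, TWIST1, TWIST2, CDH1, EPCAM, ESRP1, ESRP2, GRHL2 and VIM were chosen by name, as regulators and markers of the epithelial-mesenchymal transition, from the 58735 genes of the count table. RNA-Seq was performed on H1155, an established line of neuroendocrine large cell lung cancer, in 3 libraries labelled WT and 3 labelled GFI1-KO. Both groups were untreated and grown in DMEM with serum. GFI1 is a zinc finger repressor of the hematopoietic lineage, and the question of the comparison was which transcripts differ once it is deleted. According to the study's methods, GFI1-KO cells came from sorted monoclonal cells after CRISPR/Cas9 cutting of the GFI1 promoter region. The labels do not say how many clones or cultures the libraries stand for. The p-values below therefore measure the spread between these libraries, which may be technical.

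GFI1 itself had 153, 106 and 125 counts under the WT label and 174, 188 and 170 under the GFI1-KO label. The targeted gene was thus not lower under the knockout label, with 135 ± 19.9 against 168 ± 9.28 normalized counts (SD, n = 3) and a log2 fold change of 0.31 ± 0.12 (SE; adjusted p = 0.0273 by the quasi-likelihood test of edgeR, with p-values adjusted after Benjamini and Hochberg over all genes). The call was lost without the second WT (0.21), the third WT (0.28) or the second GFI1-KO library (0.27), with DESeq2, with upper-quartile factors and with the GC and length correction (0.17), and the value was above 0 in each. Normalized counts are counts scaled to a common library size, and all fold changes below are GFI1-KO over WT. Every direction given here rests on the library labels, which the counts of GFI1, taken over the whole gene and not at the cut promoter region, do not check. The paper presents immunoblots of GFI1 in H1155 and GFI1-KO H1155 cells, a protein measure that is not part of these counts. Library totals lay between 14882914 and 17692882 counts, so that a floor of 3 counts corresponded to 0.170 to 0.202 CPM. Of the 17514 genes that passed the filter on low counts, 72.4% passed the threshold of 0.05 on the adjusted p, 36.5% higher and 35.9% lower, and 60.7% did so in a fit corrected for GC content and gene length. Fold changes followed the GC content of the genes, with a Spearman rho of 0.574 across the 17514 genes, which share their libraries and are not independent. Values from the corrected fit are given beside some of the results only. Results given without them also moved, among them the log2 fold changes of TWIST2 (-1.70 to -2.20), CTBP1 (-0.66 to -1.14) and OCLN (-1.06 to -0.60). The part of GC content in the results was not tested.

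In the epithelial-mesenchymal transition, cells joined to each other by E-cadherin, the product of CDH1, lose these contacts and take on a motile form rich in vimentin. ZEB and TWIST proteins are transcription factors that bind E-box sequences and repress epithelial genes, CDH1 among them, while GRHL2 and the miR-200 family counteract ZEB1. ESRP1 and ESRP2 are epithelial RNA-binding proteins that set the splicing of many transcripts, and EPCAM is an epithelial surface adhesion molecule. Neuroendocrine lung cancers are known to mix epithelial, neuronal and mesenchymal traits.

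Of the 10 genes, 4 rose (ZEB1, TWIST1, GRHL2 and VIM) and 5 fell (ZEB2, TWIST2, CDH1, EPCAM and ESRP1) in the libraries labelled GFI1-KO, beside 72.4% of all tested genes called. The tenth, ESRP2, had too few counts to be tested. Where at least 10 counts in every library were required, 3 of the genes were called lower, beside 37.6% of all genes tested that way. The 9 calls do not set the genes apart from the rest of the table. CDH1 and GRHL2 passed the filter on low counts through 1 group only. TWIST2 reached the filter level in 3 WT and 1 GFI1-KO libraries, and EPCAM in 3 and 2. Neither would have passed through the GFI1-KO group alone. Directions were mixed within the roles, and those of ZEB2 and TWIST1 turned with the correction. A mesenchymal marker and a ZEB factor rose while the other ZEB factor fell, a fall that the GC and length correction removed, and 3 epithelial genes fell while the epithelial factor GRHL2 rose. The median log2 fold change of the 9 tested genes was -0.50, against 0.00050 for all tested genes. This median is the value of ZEB2 alone, whose fall the correction removed, and describes no common shift. In bulk RNA, fewer cells of a type and less RNA per cell cannot be told apart.

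**Figure D1:**
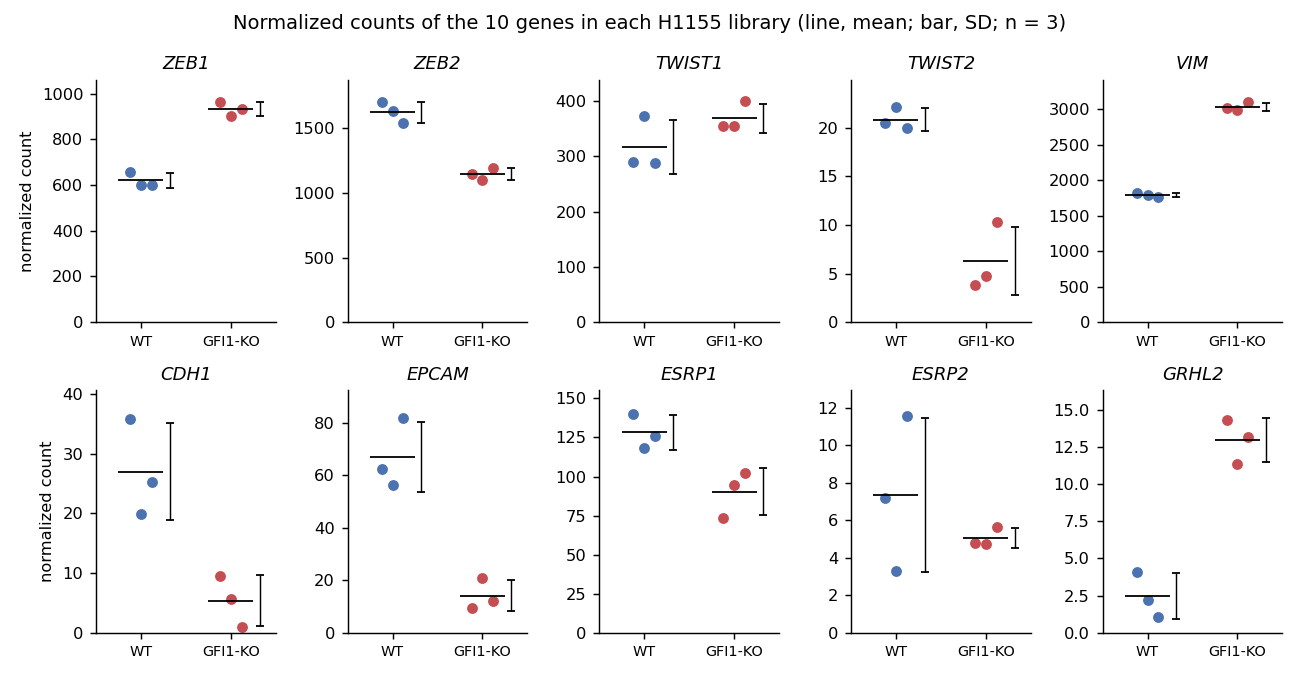
Normalized counts (vertical axes, each from 0) of the 10 genes in the 3 libraries labelled WT (blue) and the 3 labelled GFI1-KO (red), with the mean as a line and the SD as a bar. The groups overlap for TWIST1 and ESRP2 and are apart for the other 8 genes, as they are for 74.4% of all tested genes.

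ZEB1 (ENSG00000148516, plus strand, chr10:31318495-31529814, GRCh38) encodes a zinc finger E-box repressor of CDH1. It had 643, 544 and 573 counts under the WT label and 1011, 952 and 993 under the GFI1-KO label. All 3 GFI1-KO libraries lay above all WT libraries, and the groups were likewise free of overlap in 74.4% of all tested genes. ZEB1 rose from 621 ± 32.7 to 933 ± 30.6 normalized counts (SD, n = 3), with a log2 fold change of 0.59 ± 0.06 (SE; edgeR, adjusted p = 9.3e-10). The rise was 1.12 on the log2 scale after correction for GC content and length, and 0.56 to 0.63 with each library left out.

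ZEB2 (ENSG00000169554, minus strand, chr2:144364364-144524583) is the paralog of ZEB1. The libraries labelled WT had 1664, 1475 and 1466 counts and those labelled GFI1-KO 1203, 1159 and 1272. Here the order was the opposite, with every GFI1-KO library below every WT library. ZEB2 fell from 1625 ± 82.8 to 1147 ± 49.4 normalized counts (SD, n = 3), with a log2 fold change of -0.50 ± 0.05 (SE; edgeR, adjusted p = 5.4e-10). After the correction for GC content and length the fall was lost, at 0.06 (adjusted p = 0.30), so that the direction for ZEB2, unlike that for ZEB1, depended on this choice. The GC contents of the 2 genes are close, 38.4% for ZEB1 and 39.1% for ZEB2, and the correction moved both fold changes upward.

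The promoters of ZEB1 and ZEB2, which moved apart, and of VIM, which had the most counts of the rising genes, are shown from RefSeq (GRCh38.p14), 5′ to 3′ on the strand of the gene, as the 250 bases before the start site nearest to the deposited gene start, which for ZEB2 lies inside the deposited gene. Capitals mark E-boxes, the letters CANNTG, where N is any base. The windows are chr10:31318167-31318416 (plus strand) for ZEB1, chr2:144520120-144520369 (minus strand) for ZEB2 and chr10:17227991-17228240 (plus strand) for VIM.
ZEB1: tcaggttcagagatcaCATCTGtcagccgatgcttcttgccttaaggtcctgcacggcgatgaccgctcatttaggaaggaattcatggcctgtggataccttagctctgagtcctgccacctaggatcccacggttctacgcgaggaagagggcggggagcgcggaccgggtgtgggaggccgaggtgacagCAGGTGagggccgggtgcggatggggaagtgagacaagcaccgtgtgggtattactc
ZEB2: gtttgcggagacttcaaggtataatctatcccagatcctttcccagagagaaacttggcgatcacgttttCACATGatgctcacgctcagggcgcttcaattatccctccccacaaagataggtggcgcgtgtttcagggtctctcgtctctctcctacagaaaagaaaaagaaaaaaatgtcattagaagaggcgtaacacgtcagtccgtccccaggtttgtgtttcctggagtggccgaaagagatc
VIM: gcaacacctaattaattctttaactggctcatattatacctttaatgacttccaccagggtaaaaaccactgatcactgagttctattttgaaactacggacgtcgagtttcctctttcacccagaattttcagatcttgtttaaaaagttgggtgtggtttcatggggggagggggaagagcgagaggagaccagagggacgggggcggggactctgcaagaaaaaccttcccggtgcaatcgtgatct
The ZEB1 window held CATCTG at 234 bases and CAGGTG at 57 bases before the start site, the latter being the reverse complement of CACCTG, the E-box that ZEB proteins are known to bind. The ZEB2 window held a single E-box, CACATG at 180 bases before the start, and the VIM window held none. Over the 35116 windows of this length in the table, on both strands, 61.8% held CANNTG and 17.5% CACCTG, which is contained in CANNTG. AATCNCNGC, a sequence like the binding motif of GFI1, occurred in 3.68% of all windows and in none of the 4 that matched the 10 genes (ZEB1, ZEB2, TWIST2 and VIM). Matches describe letters in these windows, not bound sites.

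TWIST1 (ENSG00000122691, minus strand, chr7:19020991-19117672) encodes a basic helix-loop-helix factor of the mesoderm. It had 283, 337 and 275 counts under the WT label and 372, 374 and 425 under the GFI1-KO label. After normalization the second WT library, at 373 normalized counts, lay above 2 of the GFI1-KO libraries, both at 354, so that the groups overlapped (exact permutation test, two-sided, p = 0.3). TWIST1 rose from 317 ± 48.4 to 370 ± 26.3 normalized counts (SD, n = 3), with a log2 fold change of 0.22 ± 0.09 (SE; edgeR, adjusted p = 0.0329). The call was lost with DESeq2 (adjusted p = 0.0811), with upper-quartile factors (0.18, adjusted p = 0.0783 from edgeR) and without the first WT, the third WT or the third GFI1-KO library (0.16, 0.15 and 0.17), and without the second WT library the value was 0.35. The correction for GC content and length turned the direction, to -0.26 (adjusted p = 0.0155, edgeR).

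TWIST2 (ENSG00000233608, plus strand, chr2:238848032-238910543), a close relative of TWIST1, was near the limit of detection. It had 20, 20 and 19 counts under the WT label and 4, 5 and 11 under the GFI1-KO label. TWIST2 fell from 20.9 ± 1.15 to 6.30 ± 3.54 normalized counts (SD, n = 3), and no GFI1-KO library reached the lowest WT library. The log2 fold change came to -1.70 ± 0.41 (SE, edgeR). TWIST2 reached the filter level in 3 WT libraries and 1 GFI1-KO library. It thus passed only because of the WT group, and its test is not taken as support. The summed normalized level was 3.30 times higher in WT (95% counting interval 1.96 to 5.78).

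Among the 12 other transcription factors listed as inducers of the transition, 10 were tested, with a median log2 fold change of 0.72. Of these, 7 rose, 1 fell and 2 did not pass the test, beside 72.4% of all tested genes called, 36.5% higher and 35.9% lower. The 7 include FOXC2, named after its values were seen, which passed the filter on low counts through the GFI1-KO group only. With at least 10 counts in every library required, 6 were called higher. SNAI2 (Slug), a zinc finger repressor of CDH1, had 148, 177 and 133 counts under the WT label and 1271, 1236 and 1361 under the GFI1-KO label. All GFI1-KO libraries were far above the WT range, a rise from 162 ± 29.7 to 1221 ± 55.5 normalized counts (SD, n = 3) and a log2 fold change of 2.91 ± 0.08 (SE; edgeR, adjusted p = 7.7e-21). PRRX1, a homeobox factor of mesenchyme, rose from 461 ± 25.3 to 824 ± 34.1 normalized counts (SD, n = 3), by 0.84 on the log2 scale. TCF4, an E protein that pairs with TWIST factors, fell from 2359.8 ± 46.1 to 1355 ± 2.95 normalized counts (SD, n = 3), by 0.80 on the log2 scale, or by 0.20 after the correction for GC content and length. SNAI1 (Snail), named after its values were seen, had 33, 45 and 47 counts against 50 in each GFI1-KO library and did not pass the test (log2 fold change 0.10, adjusted p = 0.698, edgeR). With the correction, 4 of the factors in place of 7 were called higher.

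CDH1 (ENSG00000039068, plus strand, chr16:68737225-68835548) was low in both groups. Its counts were 35, 18 and 24 under the WT label and 10, 6 and 1 under the GFI1-KO label. No GFI1-KO library reached the lowest WT library. CDH1 fell from 27.0 ± 8.11 to 5.39 ± 4.30 normalized counts (SD, n = 3), with a log2 fold change of -2.31 ± 0.45 (SE, edgeR). It passed the filter on low counts through the WT group only, so that its test is not taken as support. The summed level was 5.06 times higher in WT (95% counting interval 2.97 to 9.14). Single libraries set the size of the fold change, which was -2.98 without the first GFI1-KO library and -1.81 without the third.

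EPCAM (ENSG00000119888, plus strand, chr2:47345158-47387601) showed the same order of the groups. It had 61, 51 and 78 counts under the WT label and 10, 22 and 13 under the GFI1-KO label. Every GFI1-KO library was below the WT range, by more than the spread of either group. EPCAM fell from 66.9 ± 13.3 to 14.2 ± 5.91 normalized counts (SD, n = 3), with a log2 fold change of -2.23 ± 0.28 (SE; edgeR, adjusted p = 8.1e-08). The summed level was 4.72 times higher in WT (95% counting interval 3.40 to 6.69). EPCAM reached the filter level in 3 WT and 2 GFI1-KO libraries, so that it would not have passed through the GFI1-KO group alone. With at least 10 counts in every library required, the log2 fold change was -2.23.

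ESRP1 (ENSG00000104413, plus strand, chr8:94641074-94707466) was the more abundant of the 2 ESRP genes. Counts of 137, 107 and 120 were found under the WT label and of 77, 100 and 109 under the GFI1-KO label. After normalization the highest GFI1-KO library, at 103 normalized counts, stayed below the lowest WT library, at 118. ESRP1 fell from 128 ± 11.1 to 90.2 ± 15.1 normalized counts (SD, n = 3), with a log2 fold change of -0.51 ± 0.15 (SE; edgeR, adjusted p = 0.00349). After the correction for GC content and length the value was -0.22 and no longer passed the test (adjusted p = 0.213, edgeR).

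ESRP2 (ENSG00000103067, minus strand, chr16:68229111-68238102) had 7, 3 and 11 counts under the WT label and 5, 5 and 6 under the GFI1-KO label. It did not pass the filter on low counts, and the groups overlapped at 7.34 ± 4.12 and 5.05 ± 0.517 normalized counts (SD, n = 3; exact permutation test, two-sided, p = 0.4). A difference was not detectable at this depth, since the ratio of GFI1-KO to WT was 0.681 with a 95% counting interval of 0.332 to 1.37. Its end overlaps NFATC3 on the other strand by 149 bases.

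GRHL2 (ENSG00000083307, plus strand, chr8:101492432-101669726) encodes a grainyhead factor that maintains epithelial genes, and it moved against CDH1 and EPCAM. It had 4, 2 and 1 counts under the WT label, 2 of which were under the floor of 3, and 15, 12 and 14 under the GFI1-KO label. All GFI1-KO libraries were above the WT range, though every count was low. GRHL2 rose from 2.45 ± 1.54 to 12.9 ± 1.47 normalized counts (SD, n = 3), with a log2 fold change of 2.33 ± 0.54 (SE, edgeR). It passed the filter on low counts through the GFI1-KO group only, so that its test is not taken as support. The ratio of GFI1-KO to WT was 5.24, with a 95% counting interval of 2.33 to 13.8.

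VIM (ENSG00000026025, plus strand, chr10:17228259-17237593) encodes vimentin, the intermediate filament of mesenchymal cells. The libraries labelled WT had 1779, 1617 and 1682 counts and those labelled GFI1-KO 3166, 3148 and 3287. The gap between the groups was many times the spread within either. VIM rose from 1792 ± 28.1 to 3031 ± 56.5 normalized counts (SD, n = 3), 1.69-fold, with a log2 fold change of 0.76 ± 0.04 (SE; edgeR, adjusted p = 6.0e-16). The value ranged from 0.74 to 0.77 with each library left out and was 0.85 after the correction for GC content and length.

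The strand setting of the counting was not given in the sources used here, so that reads of a gene and of its antisense partner cannot be told apart. Of the 50-base words in VIM transcripts, 20.7% also occurred in other genes, mainly in VIM-AS1, against at most 4.30% for each of the other 9 genes. This is a share of sequence on either strand and not of reads, and its part in the VIM counts was not measured. VIM-AS1 had 8, 5 and 8 counts under the WT label and 15, 18 and 19 under the GFI1-KO label, few beside those of VIM. It passed the filter on low counts through the GFI1-KO group only, and the ratio of GFI1-KO to WT was 2.21 (95% counting interval 1.31 to 3.87). ZEB1-AS1 had 38, 50 and 63 counts against 58, 35 and 42 and did not pass the test. ZEB2-AS1 had at most 2 counts in any library, and AC003986.2, opposite TWIST1, had 26, 29 and 18 against 30, 11 and 12 and did not pass it either. The miR-200 hosts and hairpins MIR200CHG, MIR200A, MIR200B, MIR200C, MIR141 and MIR429 and the host MIR205HG were at 0 in all 6 libraries, a count that does not measure mature miRNAs.

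**Figure D2:**
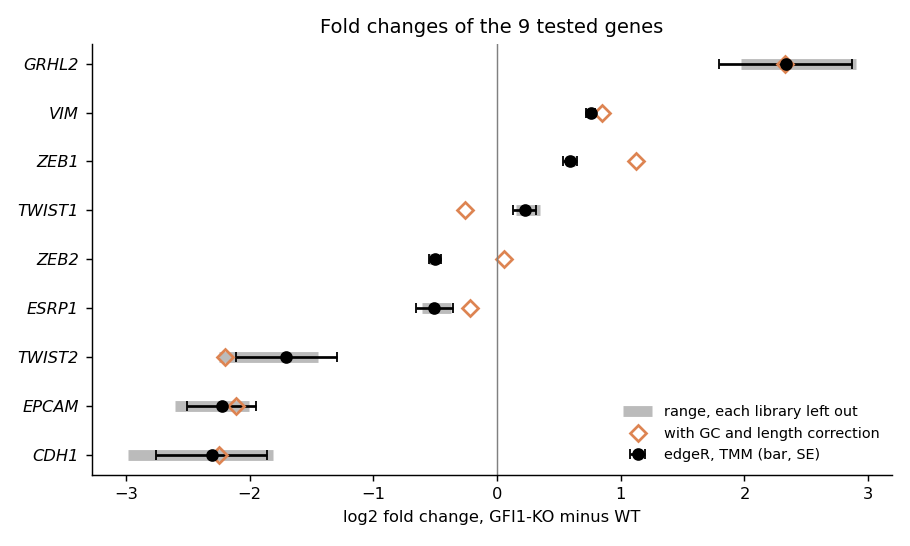
Log2 fold changes of the 9 tested genes (horizontal axis, GFI1-KO minus WT) from edgeR with their standard error (black), the range with each library left out (grey) and the value after correction for GC content and length (orange). ZEB2 and TWIST1 change sign under the correction, at 0.06 and -0.26, and the other 7 keep theirs.

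Levels of different genes were compared per gene length, in FPKM computed from the deposited gene lengths. In the libraries labelled WT the order was VIM with 21.1 ± 0.321 FPKM, TWIST1 with 9.47 ± 1.45, ZEB1 with 4.35 ± 0.227, and ZEB2 with 3.94 ± 0.199 FPKM (SD, n = 3). These were followed by EPCAM with 1.61 ± 0.320, ESRP1 with 1.60 ± 0.137, TWIST2 with 0.674 ± 0.0371, CDH1 with 0.265 ± 0.0795, ESRP2 with 0.0801 ± 0.0449 and GRHL2 with 0.0246 ± 0.0154 FPKM (SD, n = 3). Neighbours in this order were apart in every library except EPCAM and ESRP1 and, at the bottom, ESRP2 and GRHL2. VIM, TWIST1, ZEB1 and ZEB2 thus led EPCAM, ESRP1, CDH1, ESRP2 and GRHL2 already under the WT label. Epithelial genes outside this order lay on both sides of TWIST1, ZEB1 and ZEB2 under this label. MAL2 had 18.5 ± 0.146 and KLF5 12.2 ± 0.598, whereas OCLN had 1.43 ± 0.0804 FPKM (SD, n = 3). In the libraries labelled GFI1-KO, VIM stood at 35.3 ± 0.676, TWIST1 at 10.9 ± 0.784, ZEB1 at 6.47 ± 0.209, and ZEB2 at 2.75 ± 0.119 FPKM (SD, n = 3). Below them came ESRP1 at 1.11 ± 0.187, EPCAM at 0.338 ± 0.141, TWIST2 at 0.201 ± 0.113, GRHL2 at 0.128 ± 0.0145, ESRP2 at 0.0545 ± 0.00562 and CDH1 at 0.0523 ± 0.0417 FPKM (SD, n = 3). EPCAM fell behind ESRP1, GRHL2 moved ahead of ESRP2, and CDH1 came last, without a gap to ESRP2. TWIST2 could not be separated from EPCAM above it or from GRHL2 below it. The order of ZEB1 and ZEB2 under the WT label depended on the length used, since with the canonical GENCODE transcript, a choice made after the data were seen, ZEB2 had 10.6 ± 0.537 and ZEB1 6.34 ± 0.331 FPKM (SD, n = 3).

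**Figure D3:**
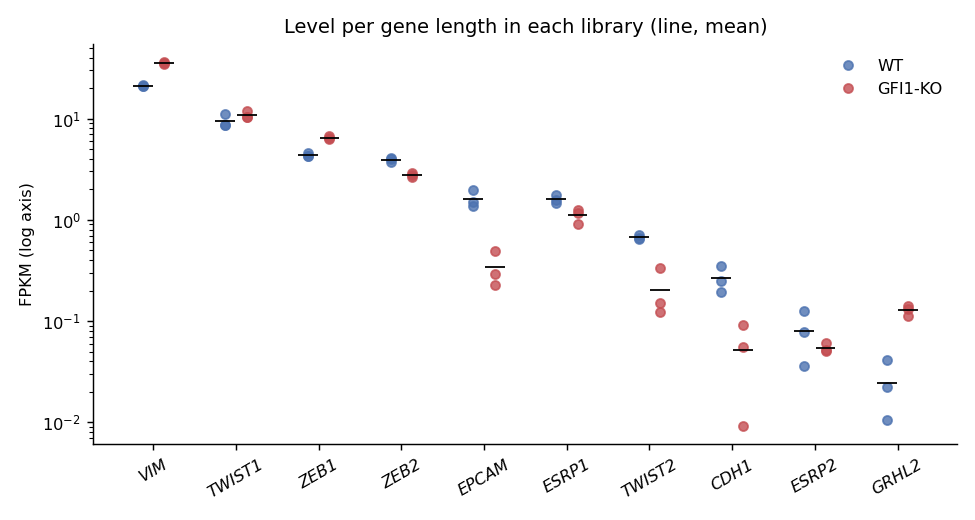
FPKM of the 10 genes (vertical axis, log scale) in each library labelled WT (blue) and GFI1-KO (red), with the mean as a line, ordered by the WT mean. Means under the WT label span from 0.0246 for GRHL2 to 21.1 for VIM.

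Within the ZEB pair, ZEB1 made up 52.8%, 51.7% and 53.1% of the summed FPKM under the WT label and 70.9%, 70.4% and 69.3% under the GFI1-KO label. The groups did not overlap and their means, 52.5 ± 0.767% and 70.2 ± 0.791% (SD, n = 3), were 17.7 percentage points apart (exact permutation test, two-sided, p = 0.1, the smallest that 3 against 3 allows). The level of this share depended on the deposited lengths. With canonical transcripts, ZEB1 lay below ZEB2 under WT (6.34 and 10.6 FPKM) and above it under GFI1-KO (9.43 and 7.43). From raw counts, the means of the ZEB1 share were 17.2 points apart. TWIST1 made up 92.9%, 94.0% and 93.0% of the TWIST pair under WT and 98.8%, 98.6% and 97.3% under GFI1-KO, 4.93 points higher (exact permutation p = 0.1). The ESRP1 share of its pair overlapped between the groups, at 95.3 ± 2.55% and 95.3 ± 0.603% (SD, n = 3; exact permutation p = 1). Set against N-cadherin (CDH2), the cadherin that often replaces E-cadherin in the transition, CDH1 made up 18.1%, 9.16% and 12.5% of the summed FPKM under WT and 5.56%, 3.95% and 0.489% under GFI1-KO, 9.91 points lower (exact permutation p = 0.1). CDH2 itself had 143 ± 14.2 and 131 ± 21.3 normalized counts (SD, n = 3) and did not pass the test (adjusted p = 0.416, edgeR).

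**Figure D4:**
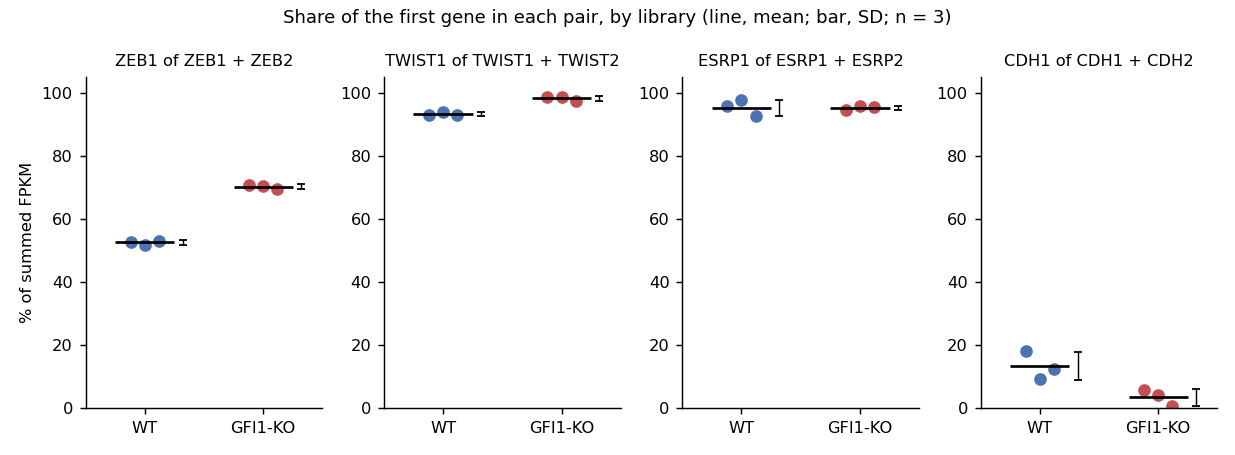
Share of the first gene in the summed FPKM of each pair (vertical axes, percent) per library labelled WT (blue) and GFI1-KO (red), with the mean as a line and the SD as a bar. With the deposited gene lengths, ZEB1 goes from 52.5% to 70.2%, the ESRP pair overlaps, and CDH1 goes from 13.2% to 3.33%.

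Of 12 listed mesenchymal genes other than VIM, 10 were tested, with a median log2 fold change of 1.16. Of these, 7 rose, none fell and 3 did not pass the test, beside 72.4% of all tested genes called, 36.5% higher and 35.9% lower. The 7 include ACTA2, named after its values were seen, with 7, 4 and 4 counts under WT and 19, 22 and 19 under GFI1-KO. ACTA2 passed the filter on low counts through the GFI1-KO group only. FN1, which encodes fibronectin, rose from 2328 ± 52.9 to 11355 ± 355 normalized counts (SD, n = 3), with a log2 fold change of 2.29 ± 0.04 (SE; edgeR, adjusted p = 3.5e-26).

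Epithelial transcription factors other than GRHL2 went both ways. Of 12 listed, 6 were tested, with a median log2 fold change of -0.33. Among the 6, 2 rose, 3 fell and 1 did not pass the test, beside 72.4% of all tested genes called. KLF4 rose from 41.6 ± 3.92 to 86.5 ± 7.52 and KLF5 from 781 ± 38.7 to 1469.8 ± 83.5 normalized counts (SD, n = 3), both zinc finger factors of epithelia. FOXA1, a pioneer factor of endoderm, fell from 621 ± 19.3 to 383 ± 43.2 normalized counts (SD, n = 3), by 0.70 on the log2 scale. GRHL1, a relative of GRHL2, fell by 0.26 on the log2 scale, a call lost without the third GFI1-KO library (-0.20) and a direction that turned to 0.09 after the correction for GC content and length. OVOL2, a repressor of ZEB1 named here after its values were seen, had 39, 25 and 36 counts under WT and 2, 7 and 5 under GFI1-KO. It passed the filter on low counts through the WT group only, and its summed level was 7.99 times higher in WT (95% counting interval 4.54 to 15.1).

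Cell junction genes were split as well. Of 18 listed for tight junctions and polarity, 15 were tested, with a median of -0.19 on the log2 scale. Of these, 3 rose, 8 fell and 4 did not pass the test, beside 72.4% of all tested genes called, 36.5% higher and 35.9% lower. OCLN (occludin) fell from 159 ± 8.92 to 76.2 ± 15.3 normalized counts (SD, n = 3), by 1.06 on the log2 scale. MPP5, a polarity scaffold, fell by 0.67 and by only 0.12 after the correction for GC content and length (adjusted p = 0.089, edgeR). Claudin genes did not move as 1 group, and the 2 rising ones, CLDN1 and CLDN7, are named after their values were seen. CLDN1 had 4 counts in each WT library and 64, 76 and 80 under GFI1-KO, and CLDN7 had 10, 15 and 11 against 70, 43 and 63. CLDN1 passed the filter on low counts through the GFI1-KO group only. With at least 10 counts in every library required, 2 tight junction and polarity genes were called higher. Of 18 listed for adherens junctions and desmosomes, 15 were tested, with a median of -0.12. In this list 5 rose, 8 fell and 2 did not pass the test, beside 72.4% of all tested genes called. PPL (periplakin) fell from 257 ± 9.17 to 64.7 ± 5.01 and PKP2 (plakophilin 2) from 147 ± 9.69 to 41.0 ± 6.52 normalized counts (SD, n = 3). NECTIN2 rose by 0.79 and NECTIN1 by 0.53 on the log2 scale, which became 0.19 and 0.03 after the correction, the latter no longer called (adjusted p = 0.501, edgeR).

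Of 15 genes of the epithelial surface and of trafficking, 10 were tested, with a median log2 fold change of -0.29. Here 2 rose, 5 fell and 3 did not pass the test, beside 72.4% of all tested genes called. The 5 include PROM2, named after its values were seen, which reached the filter level in 3 WT libraries and 1 GFI1-KO library. MAL2, a membrane protein of apical transport, fell from 1045 ± 7.76 to 171 ± 14.0 normalized counts (SD, n = 3), with a log2 fold change of -2.61 ± 0.07 (SE; edgeR, adjusted p = 3.6e-21). CDS1, an enzyme of phospholipid synthesis, fell by 1.36 on the log2 scale. AP1M2, an epithelial clathrin adaptor subunit, rose by 1.00, and LSR, a protein of tricellular junctions, by 0.66, which turned to -0.08 after the correction.

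All 8 listed corepressors that act with ZEB proteins were tested, with a median log2 fold change of -0.49. Of these, 2 rose and 6 fell, beside 36.5% and 35.9% of all tested genes. CTBP1, the corepressor that ZEB proteins bind directly, fell from 1651 ± 64.9 to 1045 ± 59.9 normalized counts (SD, n = 3), by 0.66 on the log2 scale. HDAC2, a histone deacetylase, fell from 8061 ± 239 to 4307 ± 150 normalized counts (SD, n = 3), by 0.90, or by 0.31 after the correction for GC content and length. HDAC1 rose by 0.25, and SMARCA4, a chromatin remodeling ATPase, by 0.11, a direction that turned to -0.36 after the correction and was not called with upper-quartile factors (adjusted p = 0.0726, edgeR).

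Among 12 other splicing regulators linked to the epithelial, mesenchymal or neuronal state, 11 were tested, with a median log2 fold change of -0.13. Among the 11, 3 rose, 6 fell and 2 did not pass the test, beside 72.4% of all tested genes called. RBM47, an epithelial RNA-binding protein, rose from 148 ± 10.6 to 476 ± 28.3 normalized counts (SD, n = 3), by 1.69 on the log2 scale, while ESRP1 fell. PTBP2, a neuronal splicing repressor, fell from 699.5 ± 10.8 to 338 ± 9.23 normalized counts (SD, n = 3), by 1.05 on the log2 scale, or by 0.36 after the correction for GC content and length. RBFOX3, the neuronal antigen NeuN, rose by 0.67, and MBNL3, of the muscleblind family, fell by 0.66, and neither passed the test after the correction (adjusted p = 0.347 and 0.414, edgeR).

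For the 5 members with a mean of at least 50 normalized counts, the 12099 protein-coding genes above the same mean were ranked by the Euclidean distance of their centered log2 CPM over the 6 libraries. Nearest to ZEB1 were FXR2 at a distance of 0.0349 and IGFBP2 at 0.0471. CENPJ at 0.0477 and CEP112 at 0.0533 were nearest to ZEB2. The TWIST1 pattern was matched less closely, with KIRREL2 at 0.0971 and YDJC at 0.113, and so was that of ESRP1, with ZNF662 at 0.188 and PAQR5 at 0.204. For VIM, GIPC1 at 0.0348 and FSCN1 at 0.0475 were the nearest. None of the 10 genes was among these nearest genes, and TWIST2, CDH1, EPCAM, ESRP2 and GRHL2, below the required mean, could not be. The distances describe 6 points that share their libraries and depth.

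Markers of the labelled cell type differed between the groups. All 6 neuroendocrine markers were tested, of which 3 rose and 3 fell, beside 72.4% of all tested genes called. Their summed level was 20026 to 20386 normalized counts under WT and 25677 to 26069.9 under GFI1-KO. NEUROD1 fell by 0.40 on the log2 scale, or by 0.071 after the correction for GC content and length (adjusted p = 0.0457, edgeR), where the replicate block ended the call (adjusted p = 0.0696, edgeR). SYP (synaptophysin) rose from 4221 ± 55.5 to 9759 ± 217 and NCAM1 from 1897 ± 6.04 to 4112 ± 39.6 normalized counts (SD, n = 3). The summed level of these markers was thus higher in every library labelled GFI1-KO, most of the difference lying in SYP. The part of this difference in the results above was not tested.

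Fibroblasts also express VIM, ZEB and TWIST genes. Of their 6 markers, 4 were tested, of which 2 rose and 2 fell, beside 72.4% of all tested genes called. DCN was at 0 in all libraries, LUM had at most 6 counts, and the summed level was 3004 to 3085 normalized counts under WT and 2219 to 2299 under GFI1-KO, most of it COL1A2, with 2912 ± 49.6 and 2008 ± 43.1 (SD, n = 3). The part of these markers in the results above was not tested. COL3A1 had 2, 3 and 2 counts against 129, 143 and 170, a ratio of 56.5 (95% counting interval 27.2 to 141), and PDGFRA, named after its values were seen, had 1, 2 and 0 against 17, 16 and 14. Both passed the filter on low counts through the GFI1-KO group only. COL1A2 fell by 0.54 and COL1A1 by 0.41 on the log2 scale, which became -0.14 and -0.92 in the corrected fit, and the call of COL1A1 was lost without the third GFI1-KO library (-0.34). Of the 6 leukocyte and endothelial markers, PTPRC, the defining leukocyte gene, had at most 3 counts and VWF at most 2. Of the 2 tested, 1 fell and CDH5 did not pass the test, beside 72.4% of all tested genes called. The summed level of these markers was 446 to 502 normalized counts under WT and 223 to 249 under GFI1-KO, nearly all of it PECAM1, which fell by 1.12 on the log2 scale.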

How the data were processed

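RNA-Seq of 6 H1155 libraries was analysed, 3 labelled WT and 3 labelled GFI1-KO. The authors deposited raw counts per gene with gene lengths and GRCh38 coordinates. The submitters' processing notes name Bowtie2, HTSeq and hg38, whereas the methods of the paper name Hisat2 and featureCounts; which of them made the table, and its strand setting, is not given in the sources used here. The groups were compared in R 4.3.3 by edgeR 4.0.16 (TMM factors, filterByExpr at 0.595 CPM, quasi-likelihood F test, Benjamini-Hochberg adjusted p of at most 0.05) over all 17514 genes passing the filter. Standard errors are the size of the log2 fold change over the square root of the F statistic. For normalized counts, each count was scaled from its library's TMM effective size to the mean of these sizes. FPKM used the deposited gene length and the library total. The corrected fit added spline offsets with 5 degrees of freedom for GENCODE 44 GC content and for gene length. DESeq2 1.42.0, limma-voom (limma 3.58.1), other factors and filters and leaving out each library were alternatives. Counting intervals (95%) and floors (3 counts) cover counting error only. Replicate pairs differed beyond sampling noise (chi-square per degree of freedom 1.82 to 4.14).

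The members and lists were chosen with earlier results of these data known. Named genes are the 10 members, GFI1, genes that overlap a member, the called genes with a mean of at least 50 normalized counts and the 2 largest increases and decreases of each list, and the 2 nearest genes by expression distance; a few genes that this rule names are not reported here. Promoter sequences are from RefSeq (GRCh38.p14).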

Additional observations from a re-analysis of the deposited data

How the results depend on the processing

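DESeq2, limma-voom, other scaling factors and leaving out each library changed the call of no tested member but TWIST1 and the direction of none, and scaling moved the median log2 fold change of all genes by at most 0.042. With at least 10 counts in every library required, CDH1, TWIST2 and GRHL2 could not be tested, and 3 members in place of 5 were called lower. The correction for GC content and length called 10635 genes in place of 12680, 9011 of them shared and 7816 in the same direction. It reversed ZEB2 to 0.057, TWIST1 to -0.26, GRHL1 to 0.092, LSR to -0.084 and SMARCA4 to -0.36, or, combined with the replicate block, to 0.058, -0.26, 0.090, -0.084 and -0.36, and the cause was not tested. With this correction, with or without the block, 4 of the other transcription factors were called higher (7 without it), 5 adherens junction and desmosome genes lower (8), 1 surface and trafficking gene higher (2) and 1 ZEB corepressor higher (2, and 1 with upper-quartile factors). Of the other transcription factors, 2 were called lower with no filter, and 1 to 2 with a library left out. Of the antisense and miR-200 transcripts, 0 were called higher with DESeq2, with at least 10 counts in every library or with a threshold of 0.01, and 0 to 1 with a library left out. Of the fibroblast markers, 0 were called higher with at least 10 counts in every library, 1 lower with a threshold of 0.01, and 1 to 2 lower with a library left out. The difference of the ESRP1 share, -0.0214 percentage points, ran from -1.39 to 1.13 with a library left out, with reversed values of 0.189 without the first WT, 1.13 without the second WT and 0.307 without the first GFI1-KO library. The replicate block changed no call of a member and gave 12573 called genes, 12528 of them shared, and same-numbered libraries did not deviate together (Pearson r of -0.0062, 0.0134 and 0.0213 across genes), so the numbers did not pair them. Depth limited ESRP2, GRHL2, CDH1 and TWIST2, whose counts fell to 11 or fewer in 1 or both groups.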
